A study of Mus musculus with 7 samples.

Results

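The 4 anticodon pools Asp-GTC, Asn-GTT, His-GTG and Tyr-GTA are described here, out of 52 anticodon pools measured in mouse glial cells. They were taken by name from the anticodon table, together with every isodecoder of the same name. Isodecoders are tRNAs with one anticodon and different bodies, and 17 of the 217 listed belonged to these pools. tRNA names are spelled with T, as in the tables.

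All cells were cultured and derived from mice of the 129S/SvEv strain. Oligodendrocyte progenitor cells (OPCs, n = 3) came from epiblast stem cells and were grown in bFGF and PDGFA. Oligodendrocytes (OLs, n = 2) were made from OPCs in medium with noggin, IGF-1, cyclic AMP, NT3 and the thyroid hormone T3, and astrocytes (n = 2) were made from OPCs with BMP4 among other factors. The assay was QuantM-seq, in which an adapter is ligated to both ends of deacylated mature tRNA before reverse transcription. The study's methods state that OLs came from the same progenitor cultures as some OPC samples, and an OL culture can hold cells that have not differentiated. The tables list only tRNAs, so the cell types could not be checked against marker genes. Fewer cells of a type and less of a tRNA per cell cannot be told apart in such bulk samples.

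These 4 pools share a guanosine at the first anticodon base, the wobble position, followed by a U. In animals the enzyme formed by QTRT1 and QTRT2 exchanges that guanosine for queuosine, a modified base whose precursor queuine comes from diet and gut bacteria. Tyr and Asp tRNAs carry it with a further sugar, galactose or mannose respectively. Each pool reads both codons of a pair ending in U or C, and queuosine is known to affect how evenly the pair is decoded. tRNA Asp is also a substrate of the methyltransferase DNMT2, whose activity queuosine promotes. tRNA His receives an extra guanosine at its 5′ end after transcription, and nuclear Tyr genes contain a short intron that is spliced out. The values below are levels of tRNA, and the tables hold no measure of how much of each tRNA carried queuosine.

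The genes show where these tRNAs come from. RefSeq on the GRCm38.p6 assembly lists 16 genes for Asp-GTC, 13 for Asn-GTT, 10 for His-GTG and 10 for Tyr-GTA, the same numbers as the gene copies in the names of the isodecoders. Genes of Asp, His and Asn were 72, 72 and 74 bases long, and Tyr genes with their introns were 86 to 93 bases long. Of these 49 genes 38 were intergenic in GENCODE, 9 lay in an intron of another gene and 2 overlapped an exon. A cluster of 5 Asp genes occupies chr1:171037029-171102442, next to an Asn gene. Of the Asn genes 6 lie at chr3:96322074-96497854, among 6 His genes at chr3:96410069-96500437. Of the Tyr genes 6 lie at chr13:23425646-23467165. The tables used here do not say which gene makes which isodecoder.

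Partial sequences of an Asn and a His gene are shown because they hold the base that defines the group. Both genes are intergenic. They were read from RefSeq promoter windows on GRCm38.p6 that reach into them, and are written 5′ to 3′ in the direction of the tRNA with the anticodon in capitals. The Asn gene n-TNgtt6 is on the minus strand, and its first 47 of 74 bases lie at chr1:171033969-171034015. The His gene n-THgtg7 is on the plus strand, and its first 62 of 72 bases lie at chr3:96452495-96452556.
n-TNgtt6: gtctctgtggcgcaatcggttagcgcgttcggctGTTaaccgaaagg
n-THgtg7: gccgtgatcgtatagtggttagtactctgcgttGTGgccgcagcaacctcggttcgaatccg
The anticodon covers bases 35 to 37 of the Asn gene and bases 34 to 36 of the His gene. In both, the capital G is the base that is exchanged, a T precedes it and another T follows it.

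The unit of level is RPM, reads scaled to 1000000 that were assigned to cytosolic or mitochondrial tRNAs. The libraries held 1339021 to 2627351 assigned reads, and 3 reads corresponded to 1.14 to 2.24 RPM. Such limits hold for counting error alone, because PCR duplicates were not identified. The tables list only cytosolic tRNAs, and the reads outside them were 4.98 to 6.94% in OPCs, 3.55 to 3.90% in OLs and 7.74 to 7.88% in astrocytes. No replicate libraries agreed within counting error, and the astrocyte libraries differed most, at 194.9 chi-square units for each degree of freedom against 31.0 to 111.0 for the other pairs.

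In every library Asp-GTC was the highest of these pools, followed by Asn-GTT, Tyr-GTA and His-GTG, and dividing RPM by gene length left this order the same. Asp-GTC, which brings aspartate to GAU and GAC codons, ranked 2 to 8 among the 52 pools. Asn-GTT, for the asparagine codons AAU and AAC, ranked 7 to 12, and Tyr-GTA, for the tyrosine codons UAU and UAC, ranked 14 or 15. His-GTG, for the histidine codons CAU and CAC, ranked 39 to 43. Within each cell type the libraries of neighbouring pools in this order did not overlap. The ratio of Asp-GTC to His-GTG within a library, which no scaling can alter, ranged from 14.5 to 25.9. These orders and ratios compare reads, because how evenly different tRNAs were ligated and reverse transcribed was not tested.

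Asp-GTC stood at 46444, 47388 and 42161 RPM in OPC replicates 1 to 3, at 59386 and 57514 RPM in OLs, and at 49417 and 62323 RPM in astrocytes. All OL and astrocyte values exceeded all OPC values. Asn-GTT stood at 36155, 39766 and 30792 RPM in OPCs, at 46792 and 45676 RPM in OLs, and at 30549 and 42657 RPM in astrocytes. Here the OL libraries lay above all others, while the astrocyte libraries spanned more than the OPC range.

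Tyr-GTA stood at 24514, 23956 and 25858 RPM in OPCs, at 27386 and 27561 RPM in OLs, and at 24461 and 19543 RPM in astrocytes. The OL libraries were again the highest, and the lowest value was an astrocyte library. His-GTG stood at 2538, 2371 and 2900 RPM in OPCs, at 2808 and 2490 RPM in OLs, and at 2268 and 2409 RPM in astrocytes. Its OL libraries fell inside the OPC range and above both astrocyte libraries. Added together, the 4 pools took 10.2 to 11.3% of tRNA reads in OPCs, 13.3 and 13.6% in OLs, and 10.7 and 12.7% in astrocytes.

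**Figure D1:**
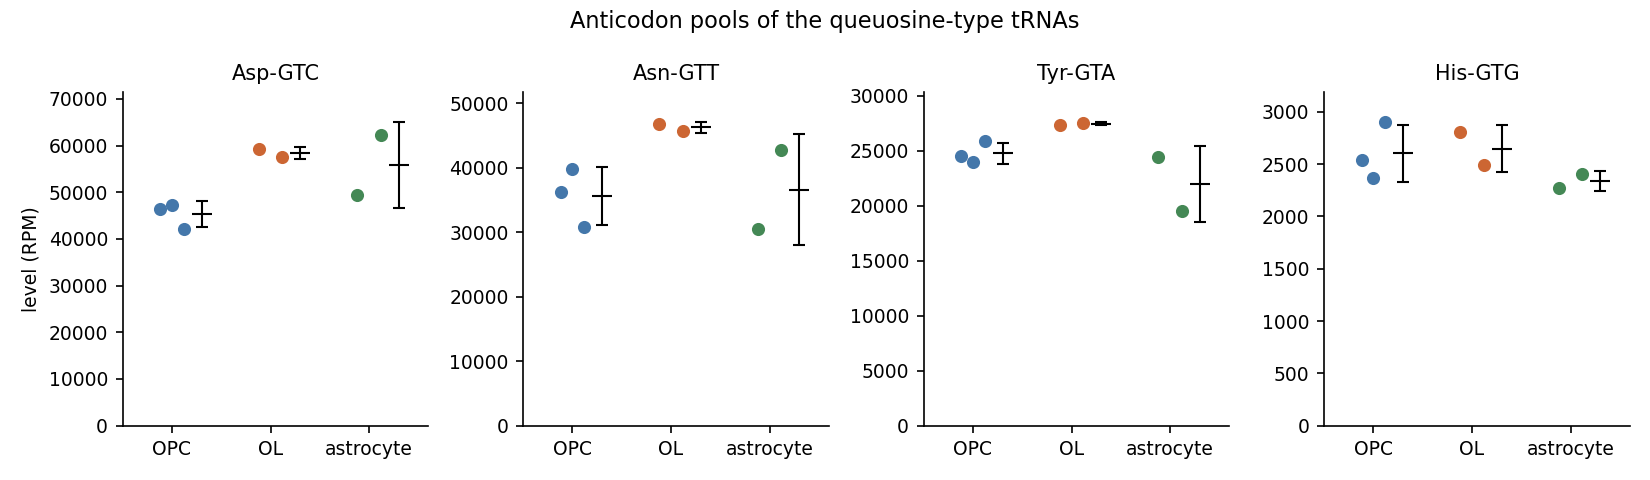
Level of each pool in RPM (vertical axes, from 0, with a scale for each panel) in the 3 OPC, 2 OL and 2 astrocyte libraries, each a point, with the mean and SD of each cell type beside them in black. OL points lie above all OPC points for Asp-GTC, Asn-GTT and Tyr-GTA and within them for His-GTG.

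The first comparison set OLs against OPCs and asked whether the pools change in differentiation. The mean of Asp-GTC was 45331 ± 2786 RPM (SD, n = 3) in OPCs and 58450 ± 1324 RPM (SD, n = 2) in OLs, a log2 change of 0.37 (SE 0.064, 95% interval 0.20 to 0.54) with a limma adjusted p of 0.0464. That passed 0.05 and missed 0.01. The study used 0.01 with a different test, DESeq2 on counts, so this is not the outcome of the study's own test. Asn-GTT went from 35571 ± 4516 to 46234 ± 789 RPM, a log2 change of 0.39 (SE 0.12, 95% interval 0.07 to 0.71, adjusted p 0.132 by limma). For Tyr-GTA the means were 24776 ± 978 and 27474 ± 123 RPM, a log2 change of 0.15 (SE 0.042, 95% interval 0.04 to 0.26, adjusted p 0.119 by limma). For His-GTG they were 2603 ± 270 and 2649 ± 225 RPM, a log2 change of 0.03 (SE 0.13, 95% interval -0.32 to 0.38, adjusted p 0.893 by limma).

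By limma 0 of the 4 pools passed an adjusted p of 0.01, as did 0% of all 52 pools, while 3 of the 4 and 13 of the 52 had an unadjusted p under 0.05. At an adjusted p under 0.05, 1 of the 4 was called against 7.69% of all pools. In 3 of the 4 the OL values were higher than the OPC values without overlap, as in 32.7% of all pools. The median log2 change was 0.26 over the 4 pools and 0.12 over all 52. Relative to the median of all pools the changes were 0.25 for Asp-GTC, 0.27 for Asn-GTT, 0.03 for Tyr-GTA and -0.09 for His-GTG. Rescaling to the listed cytosolic tRNAs gave Asp-GTC a log2 change of 0.33 and a limma adjusted p of 0.116, and median-of-ratios scaling gave 0.28 and 0.214. The part of the reads outside the cytosolic tRNAs in these differences beyond that rescaling was not tested. The adjusted p of Asp-GTC also exceeded 0.05 on leaving out OPC replicate 1 (0.109) or 2 (0.102), or OL replicate 1 (0.183) or 2 (0.360), with all 7 libraries in the fit (0.238) and without a variance trend (0.0670), each by limma.

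**Figure D2:**
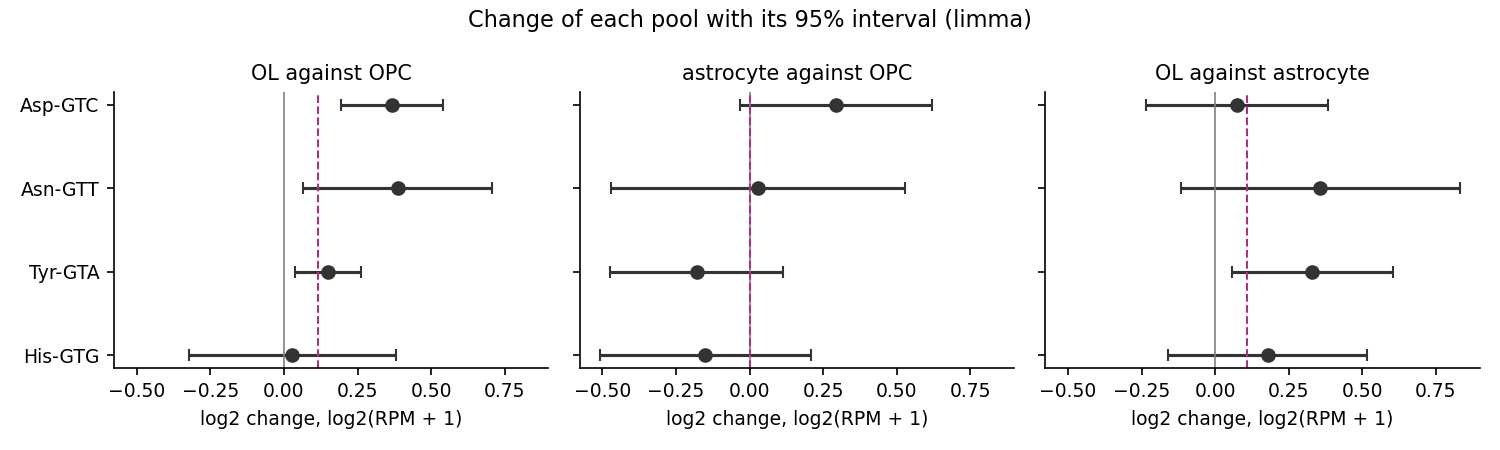
Log2 change of each pool on the log2(RPM + 1) scale (horizontal axes) in the 3 comparisons, as points with 95% intervals from limma. The grey line marks no change and the dashed line the median of all 52 pools, which is 0.12, 0.00 and 0.11 from left to right. In OLs against OPCs Asp-GTC has an interval of 0.20 to 0.54. The intervals are not adjusted for the number of pools, and differences from the median were not tested.

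The second comparison set astrocytes against OPCs. The mean of Asp-GTC in astrocytes was 55870 ± 9126 RPM (SD, n = 2), a log2 change from OPCs of 0.29 (SE 0.12, 95% interval -0.03 to 0.62, adjusted p 0.351 by limma). Asn-GTT averaged 36603 ± 8562 RPM, with a log2 change of 0.03 (95% interval -0.47 to 0.53, adjusted p 0.957 by limma). Tyr-GTA averaged 22002 ± 3478 RPM, with a log2 change of -0.18 (95% interval -0.47 to 0.11, adjusted p 0.449 by limma). His-GTG averaged 2338 ± 99.7 RPM, with a log2 change of -0.15 (95% interval -0.51 to 0.21, adjusted p 0.537 by limma).

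None of the 4 pools, and 0% of all pools, passed an adjusted p of 0.05 by limma for astrocytes against OPCs, and 0 of the 4 and 6 of the 52 had an unadjusted p under 0.05. Asp-GTC was the only one of the 4 with both astrocyte libraries above all OPC libraries, a pattern seen in 13.5% of all pools. The intervals show how wide a change these libraries leave possible, most of all for Asn-GTT, whose astrocyte replicates differed by more than the OPC replicates.

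OLs were then set against astrocytes in a fit of all 7 libraries. The log2 difference, OL minus astrocyte, was 0.33 for Tyr-GTA (SE 0.11, 95% interval 0.06 to 0.60, adjusted p 0.231 by limma) and 0.36 for Asn-GTT (SE 0.19, 95% interval -0.12 to 0.83, adjusted p 0.327 by limma). It was 0.18 for His-GTG (adjusted p 0.519 by limma) and 0.07 for Asp-GTC (adjusted p 0.703 by limma). No pool of the 4 and 0% of all 52 passed 0.05, while 1 of the 4, Tyr-GTA, and 8 of the 52 had an unadjusted limma p under 0.05. Both OL libraries lay above both astrocyte libraries for 3 of the 4, all but Asp-GTC, against 48.1% of all pools. Both comparisons of OLs share the OL libraries, so they are not independent of each other.

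In the genetic code these pools share a box with tRNAs for codons that start with the same 2 bases and end in A or G. The partners of Asp-GTC are the glutamate pools Glu-TTC and Glu-CTC, those of Asn-GTT are the lysine pools Lys-TTT and Lys-CTT, and those of His-GTG are the glutamine pools Gln-TTG and Gln-CTG. Tyr codons share their box with stop codons. Ratios within a library do not depend on how libraries were scaled. The ratio of Asp-GTC to both Glu pools was 0.609, 0.586 and 0.538 in OPCs, 0.754 and 0.732 in OLs, and 0.664 and 0.731 in astrocytes. Every OL value exceeded every astrocyte value, but narrowly, at 0.7322 in OL replicate 2 and 0.7312 in astrocyte replicate 2. Every astrocyte value exceeded every OPC value. How often other ratios separate in this way was not counted. The ratio of Asn-GTT to both Lys pools was 0.349, 0.409 and 0.290 in OPCs, 0.483 and 0.494 in OLs, and 0.269 and 0.424 in astrocytes. The OL ratios were again the highest, and those of OPCs and astrocytes overlapped. The ratio of His-GTG to both Gln pools ranged from 0.0439 to 0.0558, with all 3 cell types overlapping.

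The pools were also set beside 2 fixed lists, the 6 partner pools and 4 other pools that start with G at the wobble base and are not queuosine tRNAs, Phe-GAA, Cys-GCA, Ser-GCT and Gly-GCC. The table holds 1 more such pool, Ser-GGA, which the list does not include, and its log2 change was -0.36 in OLs against OPCs, -0.19 in astrocytes against OPCs and -0.17 in OLs against astrocytes (adjusted p 0.237, 0.612 and 0.682 by limma). In OLs against OPCs 0 of the 6 partners and 0 of the 4 other pools passed an adjusted p of 0.05 by limma, and 0 and 1 had an unadjusted p under 0.05. Median log2 changes were 0.26 for the queuosine-type pools (range 0.03 to 0.39), -0.03 for the other pools (-0.43 to 0.26) and -0.07 for the partners (-0.11 to 0.05), beside 0.12 over all 52. For astrocytes against OPCs the 3 medians were -0.06, -0.06 and 0.00, with 0 called in each list by limma at 0.05 and 0 at an unadjusted p under 0.05. For OLs against astrocytes they were 0.25, 0.03 and -0.02, again with 0 called, and with 1, 1 and 0 at an unadjusted limma p under 0.05. The difference between the lists was not tested.

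**Figure D3:**
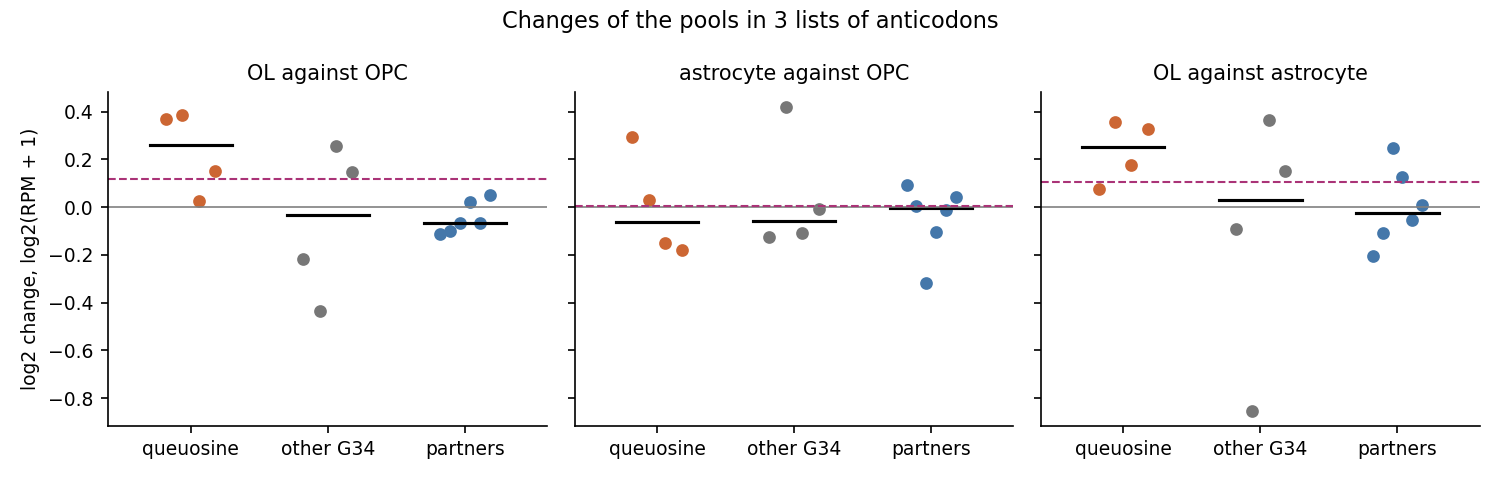
Log2 change of each pool on the log2(RPM + 1) scale (vertical axis) in 3 lists, the 4 queuosine-type pools, 4 other pools with G at the wobble base and 6 partner pools of the same codon boxes, in the 3 comparisons. Points are pools, black bars list medians and the dashed line the median of all 52 pools. In OLs against OPCs the 6 partners range from -0.11 to 0.05, and the difference between the lists was not tested.

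Most of each pool was made of 1 or 2 isodecoders. Over all libraries Asn-GTT-3 made up 99.7% of its pool, His-GTG-2 97.2%, Tyr-GTA-1 89.9% and Asp-GTC-1 86.5%. Asp-GTC-2 added 13.4% and Tyr-GTA-4 9.76%. The remaining members were far lower. Of the 17 isodecoders, 14 had a mean of at least 1 RPM and were tested, and 3 did not. Asp-GTC-4 had 1 to 4 reads in a library, Asn-GTT-4 had 0 to 3 and Asn-GTT-5 had 0 to 2, so they are close to the 3 reads that a count of 0 allows, and no change is given for them.

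Level was not proportional to gene number within a pool. Asp-GTC-2 has 1 gene copy in its name and averaged 6991 RPM, more than the 3467 RPM for each of the 13 copies of Asp-GTC-1. Tyr-GTA-4, also with 1 copy, averaged 2417 RPM, against 4450 RPM for each of the 5 copies of Tyr-GTA-1. For Asn-GTT-3 the level was 4310 RPM for each of 9 copies, and for His-GTG-2 it was 309 RPM for each of 8. The other members with 1 copy ranged from 0.323 RPM for Asn-GTT-5 to 93.8 RPM for Asn-GTT-2, and Tyr-GTA-3, with 2 copies, had 12.6 RPM for each. A pool level divided over its copies was 3256 RPM for Asp-GTC, 2993 for Asn-GTT, 2475 for Tyr-GTA and 254 for His-GTG. These are averages that assume equal use of the copies, which the tables cannot show. Between different tRNAs they also assume equal capture by the assay, which was not tested.

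**Figure D4:**
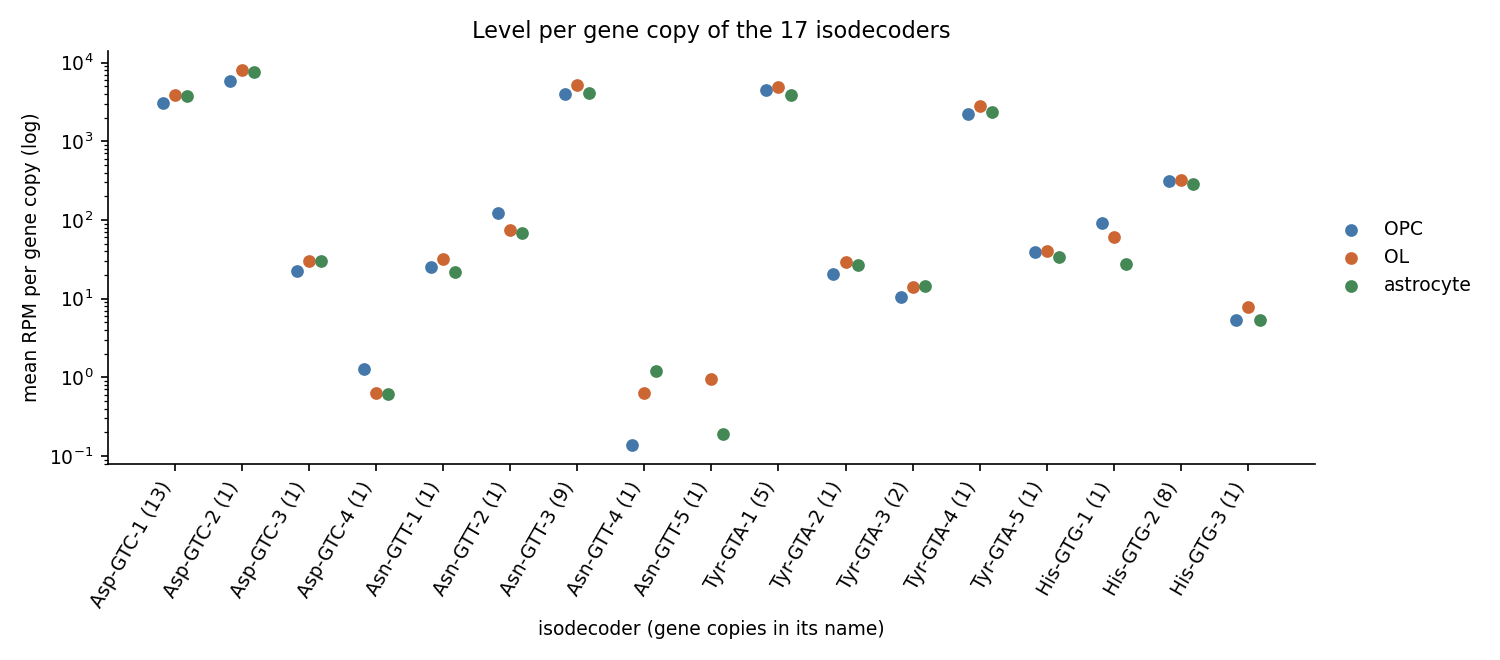
Mean RPM per gene copy of all 17 isodecoders (vertical axis, logarithmic) in OPCs, OLs and astrocytes, with the number of copies in each name in brackets. Isodecoders with 1 copy span from 0.323 RPM for Asn-GTT-5, which has no point for OPCs because its OPC libraries are listed at 0, to 6991 RPM for Asp-GTC-2, averaged over all libraries.

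In OLs against OPCs 0 of the 14 tested isodecoders passed an adjusted p of 0.01 by limma, against 5.73% of all 192 tested. At an unadjusted limma p under 0.05 there were 5 of the 14, against 32.8% of all. At 0.05 after adjustment 5 of the 14 were called, against 18.2% of all. OL libraries lay above all OPC libraries for 9 of the 14, against 30.2% of all isodecoders, and below them for 1, against 22.9%. The 5 called were both main Asp members, the main Asn member, Tyr-GTA-4 and Asn-GTT-2.

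Asp-GTC-2 stood at 6162, 6139 and 5070 RPM in OPCs and at 8332 and 7976 RPM in OLs, a log2 change of 0.50 (SE 0.11, adjusted p 0.0182 by limma). Asp-GTC-1 stood at 40264, 41226 and 37061 RPM in OPCs and at 51023 and 49508 RPM in OLs, a log2 change of 0.35 (SE 0.065, adjusted p 0.0116 by limma). Both main members of the Asp pool thus had OL libraries above every OPC library. Without OPC replicate 3 both fell under 0.01, with limma adjusted p of 0.00361 for Asp-GTC-2 and 0.00599 for Asp-GTC-1, and without OPC replicate 2 Asp-GTC-1 did so at 0.00990. The calls at 0.05 were lost without OL replicate 1 (0.177 and 0.133, in the same order) or 2 (0.114 and 0.104) and without a variance trend (0.0835 and 0.0989), that of Asp-GTC-2 with no filter on low values (0.0508), and that of Asp-GTC-1 under median-of-ratios scaling (0.138), all by limma.

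Tyr-GTA-4 stood at 2119, 2228 and 2216 RPM in OPCs and at 2758 and 2882 RPM in OLs, a log2 change of 0.37 (SE 0.093, adjusted p 0.0337 by limma). The far larger Tyr-GTA-1 stood at 22330, 21626 and 23568 RPM in OPCs and at 24526 and 24587 RPM in OLs, a log2 change of 0.13 (SE 0.065, adjusted p 0.211 by limma). Its OL libraries were also above those of OPCs, by a smaller margin. The call of Tyr-GTA-4 was lost under 7 alternatives, among them the omission of OPC replicate 1 (0.0839) or 2 (0.0929) or of OL replicate 1 (0.217) or 2 (0.308), by limma. Asn-GTT-3, nearly the whole Asn pool, had a log2 change of 0.39 (SE 0.10, adjusted p 0.0392 by limma), a call lost under 8 alternatives that included the omission of OPC replicate 1 (0.0912) or of OL replicate 1 (0.218) or 2 (0.185).

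Asn-GTT-2 went the other way. It stood at 117, 135 and 119 RPM in OPCs and at 73.6 and 73.5 RPM in OLs, a log2 change of -0.74 (SE 0.18, 95% interval -1.17 to -0.32, adjusted p 0.0299 by limma). These values rest on 157 to 290 reads in the OPC libraries and on 117 and 118 in the OL libraries. Its limma adjusted p exceeded 0.05 on leaving out OPC replicate 1 (0.0639) or 2 (0.0868), or OL replicate 1 (0.177) or 2 (0.178). Since isodecoders of a pool can differ by few bases, how reads were divided between Asn-GTT-2 and the far more abundant Asn-GTT-3 is uncertain and was not tested.

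His members did not differ in that way between OLs and OPCs. His-GTG-2 had a log2 change of 0.04 (SE 0.12, adjusted p 0.845 by limma). His-GTG-1 stood at 58.3, 90.7 and 122 RPM in OPCs and at 57.2 and 65.4 RPM in OLs, with a log2 change of -0.49 (95% interval -1.23 to 0.25, adjusted p 0.317 by limma), and its groups overlapped. The 6 tested members that are not named singly here, all with means of 6.06 to 38.1 RPM, had log2 changes of 0.07 to 0.53 and limma adjusted p of 0.260 to 0.892.

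For astrocytes against OPCs 0 of the 14 isodecoders and 0% of all 192 passed 0.01 by limma. An unadjusted limma p under 0.05 was found for 4 of the 14, against 20.8% of all. At an adjusted p under 0.05, 2 of the 14 were called against 7.29% of all. Astrocyte libraries lay above all OPC libraries for 3 of the 14, against 16.7% of all, and below them for 2, against 22.9%. Both that were called were the ones below. His-GTG-1 stood at 25.2 and 29.7 RPM in astrocytes, under every OPC and OL library, a log2 change from OPCs of -1.62 (SE 0.32, 95% interval -2.37 to -0.88, adjusted p 0.0240 by limma). Those astrocyte values rest on 59 and 78 reads. By limma its adjusted p was 0.00440 or 0.000276 without OPC replicate 1 or 3, while without astrocyte replicate 1 or 2 it was 0.140 or 0.127, and without a variance trend or a filter on low values 0.0689 or 0.108. Asn-GTT-2 stood at 64.4 and 73.8 RPM in astrocytes, a log2 change of -0.83 (SE 0.21, adjusted p 0.0488 by limma), close to its OL level. That call was lost on leaving out any library other than OPC replicate 3, with limma adjusted p from 0.111 to 0.209, and under 4 other alternatives.

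Asp-GTC-2, at 6837 and 8421 RPM in astrocytes, and Asp-GTC-1, at 42542 and 53880 RPM, lay above all OPC libraries with log2 changes of 0.40 (adjusted p 0.156 by limma) and 0.28 (adjusted p 0.221 by limma). Tyr-GTA-4 was at 2184 and 2533 RPM and Tyr-GTA-1 at 22198 and 16911 RPM, so the astrocyte replicates moved in opposite directions for the 2 Tyr members. Asn-GTT-3 and His-GTG-2 had log2 changes of 0.03 and -0.12 and overlapped with OPCs.

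OLs against astrocytes gave 0 of the 14 isodecoders past 0.01 by limma, against 6.25% of all, and 0 of the 14 past 0.05, against 9.38%. An unadjusted limma p under 0.05 was found for 3 of the 14, against 27.1% of all. OL libraries lay above both astrocyte libraries for 6 of the 14, against 40.6% of all. The highest difference among the named isodecoders was that of His-GTG-1, with a log2 difference, OL minus astrocyte, of 1.13 (SE 0.33, 95% interval 0.39 to 1.88, adjusted p 0.0583 by limma). Leaving out OPC replicate 1 or 3 brought that adjusted p to 0.0318 or 0.0108 by limma. Median-of-ratios scaling gave 0.0326, and a fit of OLs and astrocytes alone 0.0153, by limma. These were the 4 of 14 alternatives under 0.05, not counting a replicate term. Without astrocyte replicate 1, Tyr-GTA-1 and the Tyr-GTA pool fell under 0.05 in this comparison (0.0237 and 0.0338), and without astrocyte replicate 2 Asn-GTT-3 did (0.0418). For Asn-GTT-2 the difference was 0.09 (95% interval -0.40 to 0.59, adjusted p 0.842 by limma).

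The make-up of each pool was compared as the share of every isodecoder in its pool. The percentages do not depend on the scaling of libraries, while the tested log2 values do through the 1 RPM added to both parts. Asn-GTT-2 made up 0.324, 0.340 and 0.387% of its pool in OPCs, 0.157 and 0.161% in OLs, and 0.211 and 0.173% in astrocytes. The 3 cell types did not overlap. In OLs against OPCs 7 of the 14 shares did not overlap, against 55.4% of all 184. For astrocytes against OPCs it was 7, against 43.5%, and for OLs against astrocytes 5, against 58.7%. The log2 change of the share of Asn-GTT-2 from OPCs to OLs was -1.13 (SE 0.092, 95% interval -1.39 to -0.87, adjusted p 0.0101 by limma). That was the 1 share of 14 past 0.05, against 14.1% of all 184 shares tested, and 0 passed 0.01, against 2.17% of all. At an unadjusted limma p under 0.05 there were 3 of the 14, against 31.0% of all. By limma the adjusted p was 0.00780 without OPC replicate 3, and without OL replicate 1 or 2 it was 0.0912 or 0.107. From OPCs to astrocytes the log2 change was -0.86 (adjusted p 0.0602 by limma).

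Other shares moved within narrower limits. Asp-GTC-2 took 13.3, 13.0 and 12.03% of the Asp pool in OPCs, 14.0 and 13.9% in OLs, and 13.8 and 13.5% in astrocytes. The cell types did not overlap, but OLs and astrocytes came close, at 13.867% in OL replicate 2 and 13.835% in astrocyte replicate 1. The log2 change of this share in OLs against OPCs was 0.13 (SE 0.055, adjusted p 0.224 by limma). Tyr-GTA-4 took 8.64, 9.30 and 8.57% of the Tyr pool in OPCs, 10.1 and 10.5% in OLs, and 8.93 and 13.0% in astrocytes. Its log2 change in OLs was 0.22 (SE 0.053, adjusted p 0.0761 by limma). His-GTG-1 took 2.30, 3.83 and 4.20% of the His pool in OPCs, 2.04 and 2.63% in OLs, and 1.11 and 1.23% in astrocytes, the lowest. Its log2 change in astrocytes was -1.47 (SE 0.31, adjusted p 0.0870 by limma). At 0.05 by limma 0 of the 14 shares were called for astrocytes against OPCs, against 0% of all, and 0 for OLs against astrocytes, against 14.1% of all. In the same order, 2 and 1 had an unadjusted limma p under 0.05, against 23.4% and 27.2% of all.

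**Figure D5:**
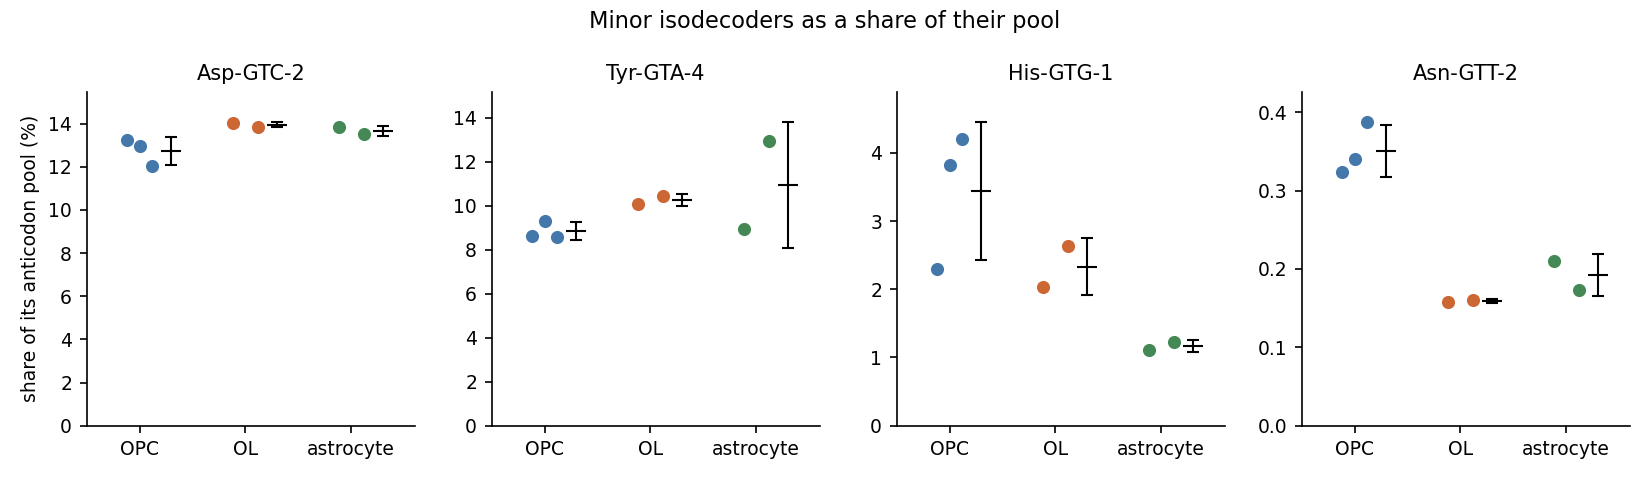
Percent of its anticodon pool taken by each of 4 minor isodecoders (vertical axes, from 0, with a scale for each panel) in every library, with the mean and SD of each cell type in black. Asn-GTT-2 lies at 0.324 to 0.387% in OPCs and at 0.157 to 0.211% in the other libraries, and His-GTG-1 is lowest in the 2 astrocyte libraries.

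For each pool the 3 other pools with the most similar profile over the 7 libraries were found among 46 with a mean of at least 100 RPM. The measure was the root mean square difference of log2(RPM + 1) after centring each pool on its own mean. Asp-GTC was nearest to Leu-CAA (0.093), Trp-CCA (0.099) and Arg-CCG (0.10). Asn-GTT was nearest to Leu-CAA (0.12), with Asp-GTC next (0.14) and iMet-CAT after it (0.14). His-GTG was nearest to Arg-TCG (0.095), Arg-TCT (0.096) and Gly-GCC (0.099), and Tyr-GTA to Arg-ACG (0.099), Gln-CTG (0.10) and Arg-TCT (0.11). Asp-GTC among the neighbours of Asn-GTT was the only case of another queuosine-type pool in these lists of 3. These libraries share one scaling, so the values describe likeness and no more.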

How the data were processed

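QuantM-seq libraries of OPCs, OLs and astrocytes were grouped by their deposited titles. The authors trimmed adapters and the 3′ CCA with cutadapt, mapped reads with bowtie2 to mature GtRNAdb mm10 tRNAs with identical genes collapsed, plus mitochondrial tRNAs, and counted per isodecoder with featureCounts at a minimum mapping quality. The deposited values are RPM, which the authors scaled to all tRNA reads. Tables with the authors' DESeq2 comparison of OPCs and OLs (mean counts, fold changes and p-values) were not used.

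Each of the 4 pools equalled the sum of its isodecoders. All 1519 isodecoder values were whole multiples of 1 read within 0.001 reads, which gave library totals of 1339021 to 2627351 reads. A count test on the recovered reads was not run. RPM were tested as log2(RPM + 1) with limma 3.58.1 in R 4.3.3, two-sided, with a variance trend except for shares, and Benjamini-Hochberg adjustment over all features tested. Fold changes on this scale understate those of low tRNAs. All 52 anticodons were tested, and the isodecoders that averaged 1 RPM or more. The comparisons with OPCs used the libraries of both groups alone, and that of OLs with astrocytes used all 7. Shares were log2(RPM + 1) of an isodecoder minus that of its pool. The threshold was an adjusted p of 0.01. Each p-value sets a difference between groups against the spread between these libraries, with a variance that draws on all features tested. The main fits treated all libraries as independent, although OLs came from the same progenitor cultures as some OPC samples. The paper also describes its astrocytes as derived from the same OPCs, without saying which OPC samples. Ratios, copies and similarities were computed in Python 3.

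Isodecoders were named if they held at least 10% of their pool, had an adjusted p under 0.05 in any comparison, or had a mean of at least 100 RPM and OL libraries that did not overlap with OPC libraries, and the rest were given as counts and ranges. The fits were tested on simulated data. Gene positions came from RefSeq on GRCm38.p6, which is mm10, and contexts from GENCODE. The members and lists were chosen with earlier results of these data known. Alternatives covered pseudocounts, scaling, filters, the variance trend, the threshold, the libraries in the fit, a replicate term and leaving out each library.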

Additional observations from a re-analysis of the deposited data

How the results depend on the processing

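Counts of queuosine-type members past an adjusted p of 0.01 were 0 by limma in all 9 tests. For OLs against OPCs, a threshold of 0.05 gave 1 pool, against 4 of all 52. Without the anticodon listed at 0 in every library it gave 2 pools (Asp-GTC and Asn-GTT), against 6 of all 51. That alternative was chosen after seeing the data. The threshold of 0.05 gave 5 isodecoders, against 35 of all 192, and 1 share, against 26 of all 184. At 0.01 a minimum mean of 100 RPM gave 1 isodecoder, against 19 of all 122. It was passed by 1 share with a pseudocount of 10, against 12 of all 184, and with all 7 libraries in the fit, against 17. For astrocytes against OPCs 2 isodecoders passed at 0.05, against 14 of all 192. At 0.01 there was 1 after median-of-ratios scaling, against 16 of all 192, and 1 with all 7 libraries in the fit, against 10. Leaving out 1 OPC library gave 0 to 2 isodecoders and 0 to 1 shares for OLs against OPCs. The most came without OPC replicate 3, where 29 of all 192 isodecoders and 5 of all 184 shares passed. For astrocytes against OPCs it gave 0 to 1 isodecoders, with 6 of all 192 past 0.01 without OPC replicate 1 and 17 without OPC replicate 3. Rescaling to the listed tRNAs moved the summed level of the 4 pools from 108281 to 115553 RPM in OPCs and from 134807 to 140019 RPM in OLs. The cause of these differences was not tested.

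Replicate numbers are shared between cell types, but deviations from the group means in libraries of the same number correlated at 0.12 and -0.11 for OPCs and OLs and at -0.075 and 0.34 for OPCs and astrocytes. With 2 libraries in a group the deviations are exact opposites, so these values are not separate evidence on pairing. OPC replicate 3 correlated at -0.21 with OL replicate 1 and at 0.21 with OL replicate 2. The OLs came from 2 of the OPC cultures, but their numbers are not given, so the numbers are not shown to pair libraries. With the replicate block 4 isodecoders passed 0.01 for OLs against OPCs (45 over all isodecoders, against 11 without) and 2 for astrocytes against OPCs (24 against 0). Calls at 0.05 for OLs against OPCs were then lost for Asp-GTC (limma adjusted p 0.250), Asn-GTT-2 (0.0691) and its share (0.0672), and in OLs against astrocytes His-GTG-1 reached 0.0228. OL and astrocyte libraries of the same number correlated at -0.29, and a crossed replicate block, added after seeing the data, gave 0 members in each test. With the block the log2 change in astrocytes against OPCs was -0.071 for Asn-GTT and -0.069 for Asn-GTT-3, both of which were positive without it.

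Small differences changed sign. Under median-of-ratios scaling His-GTG was at -0.058 and His-GTG-2 at -0.011 in OLs against OPCs, and Asp-GTC was at -0.035, Asp-GTC-1 at -0.024 and Asn-GTT-2 at -0.0011 in OLs against astrocytes. Rescaling to the listed tRNAs put His-GTG at -0.011 in OLs against OPCs. Over the fits that left out 1 library, the log2 change in OLs against OPCs ran from -0.059 to 0.11 for His-GTG and from -0.047 to 0.13 for His-GTG-2. In astrocytes against OPCs it ran from -0.21 to 0.27 for Asn-GTT and for Asn-GTT-3, and from -0.0021 to 0.21 for Tyr-GTA-4. In OLs against astrocytes it ran from -0.093 to 0.24 for Asp-GTC, -0.10 to 0.24 for Asp-GTC-1, -0.047 to 0.25 for Asp-GTC-2 and -0.0057 to 0.19 for Asn-GTT-2, and for shares from -0.34 to 0.20 for Tyr-GTA-4, -0.022 to 0.047 for Tyr-GTA-1 and -6.6e-06 to 0.00075 for Asn-GTT-3.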
